A study of Arabidopsis thaliana with 11 samples.

Results

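The root response of WT (Columbia-0) plants to 5 days of drought was analysed across all genes, in 3 drought and 3 control samples, which are 6 of the 11 samples of the series and were chosen by their genotype and condition labels alone. All of them were mature roots of *Arabidopsis thaliana* plants of 1 genotype, Col-0_WT, with no transgene. Seedlings spent 7 days on agar plates and 16 days in soil at 22 °C with 16 h of light. Drought plants then went 5 days without watering, while controls were watered as before, so that roots were 28 days old by the sum of these steps. The paper's methods describe the sequenced roots as 3 weeks old. The other 5 samples of the series are roots of *BRL3ox*, a line that overexpresses the brassinosteroid receptor gene *BRL3* from the 35S promoter, 3 of them after the same drought and 2 watered. How many plants made up a sample, and whether the replicates were separate cultures, is not given in the sources used here, so p-values measure only the spread between these samples, which may be technical.

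When soil dries, root cells lose water and the hormone abscisic acid (ABA) accumulates. ABA binds PYR/PYL receptors, which then hold back clade A PP2C phosphatases. SnRK2 kinases are thereby freed to activate bZIP factors that bind ABA response elements in promoters, and among the best known targets are genes of dehydrins and other LEA proteins, which protect cells that lose water.

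A control sample held 18610736 to 20883150 counts on genes (median 18627151) and a drought sample 20416676 to 20834773 (median 20642342), and 20718 genes had enough counts to be tested. Counts are given as CPM, which are scaled to a common library size after TMM normalization, and 3 values in a row are always replicates 1, 2 and 3. The first principal component of the 6 samples (56.3% of the variance) separated drought from control, the second (20.04%) set control replicate 3 apart, and the third (12.5%) drought replicate 1. Root identity was checked with 8 marker genes, all of which had enough counts to be tested, and their summed level was 3120.4, 2726 and 2103 CPM in control and 2572, 3571 and 3272 CPM in drought. Abundant markers weigh most in this sum, which does not show the change of each marker. Of the 8, 7 had a negative log2 fold change, each with unadjusted p under 0.05 in edgeR's quasi-likelihood F-test. By the same test, 6964 of the 20718 tested genes had an unadjusted p under 0.05 in either direction. Photosynthesis genes, which mark green shoot tissue, summed to 185, 626 and 64.8 CPM in control and 318, 227 and 83.2 CPM in drought over the 22 genes listed, with control replicate 2 highest and the groups overlapping. Touch and wound genes, which respond to handling, summed to 5578, 3933 and 7883 CPM in control and 6677, 8586 and 9732 CPM in drought, again with overlap. In these bulk samples, fewer cells of a type and less RNA per cell cannot be told apart.

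Between drought and control roots, 2565 of the 20718 tested genes differed by more than 1.5-fold and with an FDR (Benjamini-Hochberg) under 0.05 in the quasi-likelihood F-test of edgeR, which is what "called" means in the text. Of these, 1563 genes (7.54%) were called higher and 1002 (4.84%) lower in drought roots, which is 12.4% in either direction. The median log2 fold change was 1.05 for the genes called higher and -1.13 for those called lower, against -0.02 for all tested genes. Changes of more than 4 on the log2 scale were found for 33 genes called higher, and 25 genes called lower were below -4. In 1508 of the 1563 genes called higher, every drought replicate lay above every control replicate, and in 971 of the 1002 genes called lower every drought replicate lay below, where 17.2% of all tested genes do so in each direction. The genes called higher took between 7.13% and 9.29% of the gene counts of a control sample and between 13.8% and 16.2% of those of a drought sample. For the genes called lower, the share was 3.66% to 4.36% in control and 1.51% to 1.88% in drought. Without drought replicate 3, 1030 genes were called higher and 628 lower, and without control replicate 2, 649 were called lower.

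**Figure D1:**
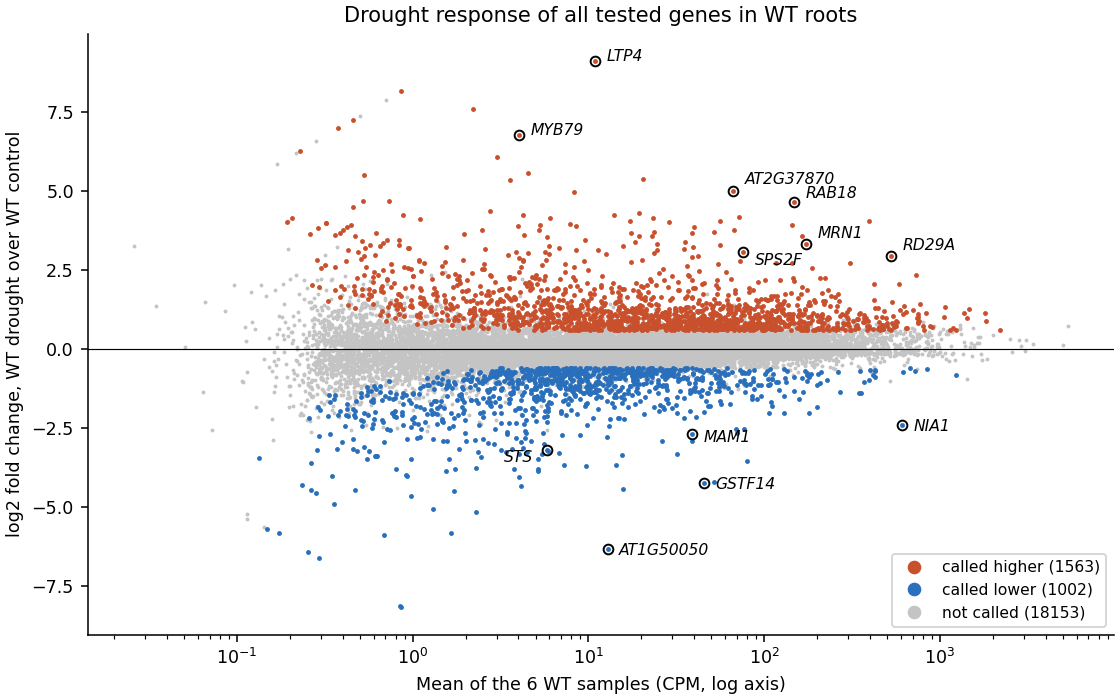
Log2 fold change of WT drought over WT control (vertical axis) against the mean of the 6 WT samples (CPM, log axis), 1 point for each of the 20718 tested genes, coloured by whether it was called higher (1563), lower (1002) or not called. Genes discussed in the text are circled, with *LTP4* at the top and *AT1G50050* among the lowest of those circled.

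The gene with the smallest p-value was *SPS2F* (AT5G11110, chromosome 5 from 3536189 to 3541149 of TAIR10.1), which encodes a sucrose phosphate synthase, the enzyme family that makes the precursor of sucrose. Its normalised count was 15.9, 15.2 and 17.1 CPM in control and 133, 120.1 and 155 CPM in drought. All drought samples were several times above all control samples and the replicates of a group lay close together, with a log2 fold change of 3.08 (SE 0.13), which is 8.45-fold, and adjusted p = 4.5e-06 in edgeR's quasi-likelihood F-test after Benjamini-Hochberg correction. *COR413-PM1* (AT2G15970), a cold-regulated plasma membrane protein gene, was at 79.6, 87.1 and 75.6 CPM in control and 602, 506 and 505 CPM in drought. *RD22* (AT5G25610), a dehydration-responsive gene of the BURP domain family, was at 5.78, 3.68 and 6.10 CPM in control and 48.6, 37.1 and 40.5 CPM in drought. Neither gene showed overlap between the groups, and the log2 fold changes were 2.73 (SE 0.15) and 3.03 (SE 0.19). *KIN1* (AT5G15960), a cold- and ABA-inducible gene, was at 29.6, 29.1 and 16.9 CPM in control and 361, 301 and 243 CPM in drought, with a log2 fold change of 3.58 (SE 0.22).

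A pair of genes annotated as lipid-transfer or seed storage 2S albumin proteins was among the 10 with the smallest p-values. *AT4G33550* was at 7.67, 8.63 and 6.15 CPM in control and 164, 139 and 106 CPM in drought, and *AT2G37870* at 4.52, 4.61 and 3.05 CPM in control and 175, 126 and 85.8 CPM in drought, both far above control in every drought sample. *MYB79*, a MYB transcription factor gene, was almost silent in watered roots, with 4 counts over the 3 control samples against 455 in drought. Its values were 0.105, 0.0886 and 0 CPM in control and 6.81, 6.81 and 10.2 CPM in drought, and the ratio of the pooled CPM was 118 (exact 95% interval 46.0 to 437, which covers counting error only). The remaining members of the 10 were *AT5G17460*, annotated as a glutamyl-tRNA amidotransferase subunit (2.17, SE 0.13), *AT5G65990*, an amino acid transporter family gene (2.07, SE 0.13), and *AT1G56300*, a DnaJ chaperone domain gene (1.54, SE 0.10), with log2 fold changes in parentheses. Over all 10 genes, the adjusted p lay between 4.5e-06 and 2.62e-05 in edgeR's quasi-likelihood F-test after Benjamini-Hochberg correction.

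At the other end, *CYP78A5* (AT1G13710, chromosome 1 from 4702657 to 4704694), a cytochrome P450 gene known for promoting organ growth, had the smallest p-value of the genes called lower. It was at 33.2, 32.9 and 34.5 CPM in control and 8.83, 7.01 and 8.37 CPM in drought. The control replicates were nearly equal and every drought sample was well below them, with a log2 fold change of -2.05 (SE 0.14), which is 4.15-fold lower, and adjusted p = 4.43e-05 in edgeR's quasi-likelihood F-test after Benjamini-Hochberg correction. *STS* (AT4G01970), annotated as stachyose synthase, an enzyme of raffinose family sugars, was at 8.82, 11.8 and 10.8 CPM in control and 1.11, 1.19 and 1.08 CPM in drought, a log2 fold change of -3.21 (SE 0.26). *AT1G50050*, annotated in the CAP superfamily of secreted proteins, was at 15.4, 22.1 and 38.7 CPM in control and 0.454, 0.260 and 0.216 CPM in drought, the largest fall among genes with at least 10 CPM in a group mean (-6.32, SE 0.51 on the log2 scale). The other genes among these 10 were *AT1G60110*, a mannose-binding lectin gene (-4.50), *AT5G38940*, a cupin gene (-4.41), *AT3G20380*, a TRAF-like gene (-2.17), *AT2G21045*, a rhodanese family gene (-1.34), *AT1G29740*, a leucine-rich repeat kinase gene (-2.65), *AT1G31050*, a bHLH factor gene (-1.82), and *AT2G01900*, a DNAse I-like gene (-2.85). *AT1G60110* rested on 8 counts over the drought samples against 196 in control (ratio 23.5, exact 95% interval 11.7 to 55.2). *AT5G38940* shares 8.17% of its 45-base stretches with another transcript, so that part of its reads cannot be assigned, 45 being the read length after trimming.

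**Figure D2:**
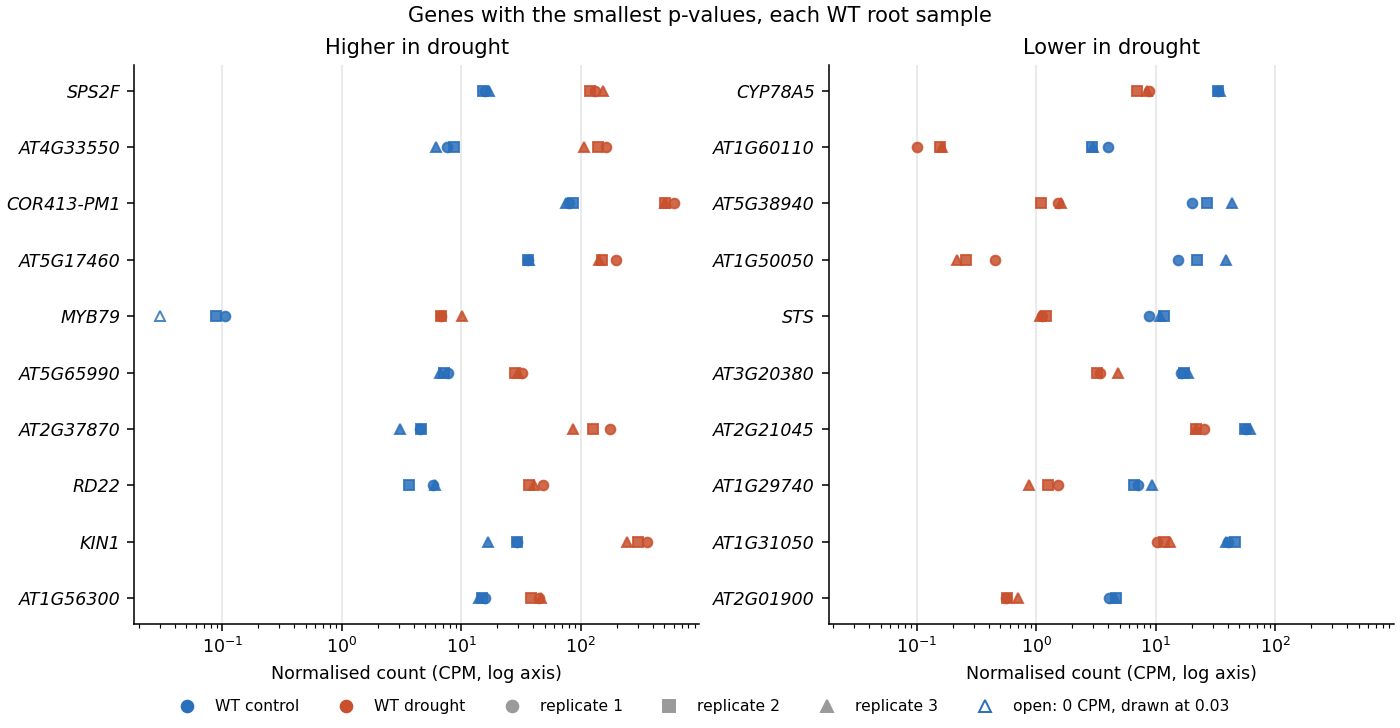
Normalised count (CPM, log axis) of each WT control and WT drought sample for the 10 genes with the smallest p-values among those called higher (left) and lower (right), with marker shape for the replicate. In all 20 genes the 3 drought samples lie on 1 side of the 3 control samples, and an open marker is a count of 0.

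The largest rises among genes with at least 10 CPM in the higher group belonged to genes of lipid transfer, sugar and amino acid export and dehydrin function. *LTP4* (AT5G59310), a lipid transfer protein gene, had 2 counts in all control samples and was at 0, 0 and 0.109 CPM in control and 19.2, 21.8 and 24.6 CPM in drought. The ratio of the pooled CPM was 654, with an exact 95% interval of 181 to 5404 for counting error only, and the fitted log2 fold change of 9.11 depends on the prior count. The fitted value was 8.52 without control replicate 2 and 11.84 without control replicate 3, the sample that held both counts. Its neighbour *LTP3*, chosen after its values were seen, was at 6.56, 4.07 and 4.90 CPM in control and 91.8, 63.4 and 69.7 CPM in drought (log2 fold change 3.86, SE 0.29). *SWEET14* (AT4G25010), which encodes a sugar exporter, was at 0.840, 0.797 and 1.25 CPM in control and 30.5, 25.4 and 64.1 CPM in drought, and *UMAMIT19* (AT1G21890), of a family of amino acid transporters, was at 0.473, 0.443 and 0.599 CPM in control and 10.9, 10.3 and 26.8 CPM in drought. The replicates of these transporters spread widely within drought, but none overlapped with control. Their log2 fold changes were 5.38 (SE 0.68) and 4.98 (SE 0.62), and that of *UMAMIT19* was 4.38 without drought replicate 3.

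Large falls were also seen for *GSTF14* (AT1G49860), a glutathione transferase gene, at 75.0, 97.4 and 85.2 CPM in control and 2.88, 7.90 and 2.86 CPM in drought. *AT4G39675*, which encodes an uncharacterized protein, was at 84.5, 123 and 87.9 CPM in control and 11.9, 3.84 and 0.162 CPM in drought, and *AT5G38200*, annotated as a class I glutamine amidotransferase-like gene, was at 19.2, 24.8 and 9.80 CPM in control and 1.97, 1.25 and 0.864 CPM in drought. Each of the 3 genes was lower in every drought sample than in any control sample, with log2 fold changes of -4.24 (SE 0.39), -4.21 (SE 0.84) and -3.71 (SE 0.43). The value of *GSTF14* was -4.90 without drought replicate 2, and that of *AT4G39675* was -5.60 without drought replicate 1.

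ABA metabolism genes were next examined in the order of the pathway. Of 13 tested genes of ABA synthesis, release and breakdown, 5 were called higher (38.5%) and 0 lower, with a median log2 fold change of 0.75. *NCED2* (AT4G18350), a dioxygenase of the committed step of ABA synthesis, was at 1.58, 0.576 and 1.42 CPM in control and 4.29, 6.60 and 10.4 CPM in drought, and *NCED3*, the member best known for drought and chosen after its values were seen, was at 13.8, 12.1 and 14.9 CPM in control and 13.6, 16.8 and 32.8 CPM in drought. The groups did not overlap for *NCED2*, which rose by 2.59 (SE 0.40) on the log2 scale, whereas *NCED3* was not called (0.63, SE 0.28, adjusted p = 0.141 in edgeR's quasi-likelihood F-test after Benjamini-Hochberg correction). *NCED3* was called without drought replicate 1, at 0.87. *BGLU33* (AT2G32860), a glucosidase gene that releases ABA from its glucose ester, rose by 1.96 (SE 0.41). The 3 other called genes encode ABA 8′-hydroxylases, which inactivate ABA, and were *CYP707A1* (1.01), *CYP707A2* (1.75) and *CYP707A3* (0.66). The number called higher was 3 without control replicate 1, control replicate 2 or drought replicate 2, and 2 without drought replicate 3, and the hydroxylase genes were those whose calls were lost.

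Among the ABA receptors, 9 genes were tested. *PYL4* and *PYL5* rose and *PYL8*, the member best known from roots, fell. *PYL4* was at 55.5, 52.9 and 67.8 CPM in control and 118, 144 and 143 CPM in drought, *PYL5* at 70.9, 54.4 and 97.8 CPM in control and 163, 183 and 176 CPM in drought and *PYL8* at 53.4, 67.0 and 47.3 CPM in control and 28.2, 20.9 and 17.44 CPM in drought. The groups were separate for each, and the log2 fold changes were 1.198 (SE 0.14), 1.23 (SE 0.20) and -1.33 (SE 0.25), calls that held without any single library. Downstream of the receptors, 5 of 9 clade A PP2C genes (55.6%) were called higher and 0 lower (median 0.85). *HAI1* (AT5G59220) was at 6.41, 5.53 and 6.32 CPM in control and 30.7, 16.4 and 24.6 CPM in drought, and *PP2CA* (AT3G11410) at 91.6, 95.2 and 77.6 CPM in control and 137, 160.1 and 176 CPM in drought. All drought values were above all control values, with log2 fold changes of 1.98 (SE 0.22) and 0.84 (SE 0.12), while *HAI3* reached 2.87 (SE 0.49), *AHG1* 1.45 (SE 0.41) and *ABI2* 0.85 (SE 0.20). *ABI1*, chosen after its values were seen, was not called (-0.26, SE 0.13). Without control replicate 1, *ABI2* and *AHG1* lost their calls and 3 genes remained, and *AHG1* was also lost without control replicate 2 or 3 or drought replicate 1 or 3.

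In the SnRK2 and bZIP list, 4 of 15 genes were called higher and 2 lower, with a median of 0.03. *OST1* (AT4G33950), the SnRK2 kinase known for closing stomata in leaves, was at 3.52, 4.25 and 4.41 CPM in control and 8.98, 10.5 and 10.4 CPM in drought, a rise of 1.29 (SE 0.15) with no overlap. The bZIP factor genes called higher were *ABF2* (0.80), *ABF3* (0.67) and *ABI5* (1.13). The kinase genes *SNRK2.8* (-1.10) and *SNRK2.9* (-0.68) were called lower. *SNRK2.8* lost its call when any 1 of the 6 libraries was left out, so that 1 gene was then called lower, and *ABF3* lost its call without drought replicate 3. With only the WT samples in the model, *ABI5*, *AHG1* and the hydroxylase genes *CYP707A1*, *CYP707A2* and *CYP707A3* were not called (adjusted p between 0.0562 and 0.105 in edgeR's quasi-likelihood F-test), which left 2 called genes of ABA metabolism. Over the named genes of synthesis, receptors, phosphatases, kinases and bZIP factors that were called, the adjusted p lay between 0.000493 and 0.0379 in edgeR's quasi-likelihood F-test after Benjamini-Hochberg correction.

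**Figure D3:**
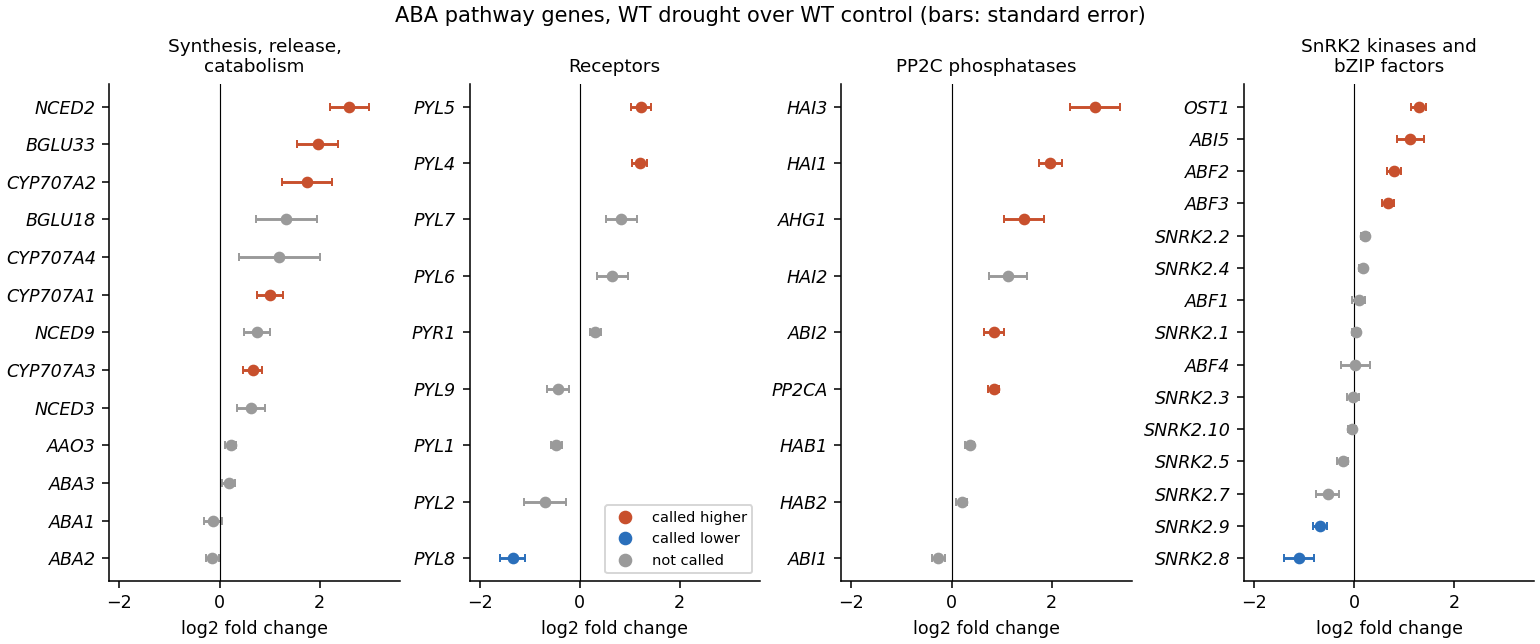
Log2 fold change of WT drought over WT control, with its standard error as a bar, for every tested gene of ABA synthesis, release and catabolism, of the PYR/PYL receptors, of the clade A PP2C phosphatases and of the SnRK2 kinases and bZIP factors, coloured by call. In the panels of metabolism and of phosphatases the called genes are all higher, 5 in each, and in the other panels both directions occur.

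Of the dehydrins and other LEA proteins, 12 of 17 tested genes were called higher (70.6%) and 0 lower, with a median log2 fold change of 1.28, and 10 to 12 genes were called higher when any 1 library was left out. Their summed level was 6789.6, 5691 and 7078 CPM in control and 11287, 12239 and 11170.1 CPM in drought, without overlap. *LTI30* (AT3G50970), a dehydrin gene, was at 221, 171 and 285 CPM in control and 932.06, 1054 and 849.6 CPM in drought. *RAB18* (AT5G66400), the ABA-responsive dehydrin gene, was at 9.45, 10.4 and 13.8 CPM in control and 419, 144 and 287 CPM in drought. Both were higher in every drought sample than in any control sample, with little spread for *LTI30* (2.07, SE 0.17) and with drought replicate 1 far above drought replicate 2 for *RAB18* (4.66, SE 0.50).

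*LEA7* (AT1G52690) was at 16.6, 15.01 and 22.4 CPM in control and 476, 171 and 167 CPM in drought, and drought replicate 1 was again the highest. *LEA4-5* (AT5G06760) was at 9.29, 8.77 and 11.1 CPM in control and 119.5, 51.7 and 52.3 CPM in drought, and *AT3G17520*, annotated as a LEA family gene, was at 2.68, 2.35 and 2.67 CPM in control and 54.6, 20.8 and 21.2 CPM in drought. These 3 genes showed no overlap of the groups, and their log2 fold changes were 3.91 (SE 0.40), 2.94 (SE 0.31) and 3.65 (SE 0.39). Without drought replicate 1, the value was 3.23 for *LEA7* and 3.04 for *AT3G17520*. The adjusted p of the 5 LEA genes named lay between 0.000131 and 0.000414 in edgeR's quasi-likelihood F-test after Benjamini-Hochberg correction.

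The list of RD, KIN and ERD genes, named after their induction by dehydration or cold, also holds the lipid transfer protein genes *LTP3* and *LTP4*. It had 10 of 16 members called higher (62.5%), 0 lower and a median of 1.796, and without the lipid transfer protein genes 8 of 14 members were called higher, with a median of 1.32. *RD29A* (AT5G52310), whose promoter is the textbook example of dehydration and ABA response elements, was at 157, 125 and 82.6 CPM in control and 977, 1018 and 785 CPM in drought. *RD29B*, its ABA-responsive neighbour, chosen after its values were seen, was at 5.78, 8.24 and 7.95 CPM in control and 157, 67.1 and 64.5 CPM in drought. Every drought replicate of both genes was above every control replicate, with log2 fold changes of 2.93 (SE 0.21) and 3.71 (SE 0.34) and adjusted p = 5.6e-05 and 0.00022 in edgeR's quasi-likelihood F-test after Benjamini-Hochberg correction. Between 8 and 12 members of this list were called higher when 1 library was left out.

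The promoters of the responding genes were searched for the 5-base core of the ABA response element, ACGTG, on both strands in the 250 bases before the annotated start of each gene (RefSeq, TAIR10.1). A palindromic CACGTG counts as 2 overlapping matches, 1 on each strand. Promoters to show were taken from the genes named for their small p-values, over all genes or within a list, and not from the other named genes. The 4 with the most matches among those called higher are shown to make the element visible. The 2 called lower with the smallest p-values and no match are shown beside them, all chosen after the matches were counted. Capitals mark ACGTG or its complement CACGT.
*LEA7*, chr1:19619474-19619723 (+), 5 matches: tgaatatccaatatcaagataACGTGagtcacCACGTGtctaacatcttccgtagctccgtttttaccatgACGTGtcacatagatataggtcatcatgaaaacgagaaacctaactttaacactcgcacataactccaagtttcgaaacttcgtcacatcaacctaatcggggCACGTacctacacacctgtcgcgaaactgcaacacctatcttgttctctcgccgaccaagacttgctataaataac
*PP2CA*, chr3:3585851-3586100 (-), 5 matches: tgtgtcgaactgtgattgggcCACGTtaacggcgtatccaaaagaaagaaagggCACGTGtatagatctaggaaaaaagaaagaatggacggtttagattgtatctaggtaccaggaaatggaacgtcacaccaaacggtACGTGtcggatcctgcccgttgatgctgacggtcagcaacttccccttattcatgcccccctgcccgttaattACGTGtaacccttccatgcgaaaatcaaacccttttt
*JAZ3*, chr3:6119457-6119706 (+), 5 matches: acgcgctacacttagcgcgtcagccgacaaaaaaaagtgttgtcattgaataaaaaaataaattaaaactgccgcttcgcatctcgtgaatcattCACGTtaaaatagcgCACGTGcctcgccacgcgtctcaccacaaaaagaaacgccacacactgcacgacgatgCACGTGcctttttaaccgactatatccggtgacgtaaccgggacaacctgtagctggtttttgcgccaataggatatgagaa
*LEA4-5*, chr5:2090431-2090680 (-), 4 matches: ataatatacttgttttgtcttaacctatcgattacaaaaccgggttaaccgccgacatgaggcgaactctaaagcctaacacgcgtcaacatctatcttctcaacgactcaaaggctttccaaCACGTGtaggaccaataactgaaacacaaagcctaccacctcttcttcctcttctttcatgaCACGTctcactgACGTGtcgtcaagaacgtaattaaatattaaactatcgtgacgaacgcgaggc
*CYP78A5*, chr1:4704695-4704944 (-), 0 matches: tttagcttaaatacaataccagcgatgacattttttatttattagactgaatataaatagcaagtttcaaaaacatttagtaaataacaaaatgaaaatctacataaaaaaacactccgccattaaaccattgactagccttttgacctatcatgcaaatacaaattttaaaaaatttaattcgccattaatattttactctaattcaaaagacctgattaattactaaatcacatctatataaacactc
*AT1G60110*, chr1:22168174-22168423 (+), 0 matches: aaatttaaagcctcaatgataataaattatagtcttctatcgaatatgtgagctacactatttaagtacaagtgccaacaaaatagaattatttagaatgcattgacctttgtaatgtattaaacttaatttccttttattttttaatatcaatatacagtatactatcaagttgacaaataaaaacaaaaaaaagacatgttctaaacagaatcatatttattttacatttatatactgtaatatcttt

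The element occurred in 36.4% of the promoters of the 1563 genes called higher and in 23.3% of those of the genes called lower, against 24.1% of all tested genes and 20.8% of all 37897 annotated promoters. Among genes with a log2 fold change over 2 it was in 44.98%, and among those called lower and below -2 in 21.2%. At least 2 matches were found in 17.5% of the promoters of genes called higher, 8.11% of those called lower and 9.93% of all tested genes. The dehydration response element core, CCGAC, was in 15.5% of promoters of genes called higher, 10.3% of those called lower, 12.7% of all tested genes and 12.0% of all promoters. The W-box core TTGAC, the site of WRKY factors, was in 47.1%, 49.6%, 45.3% and 43.9% of the same 4 sets, and the heat shock element core GAANNTTC in 8.83%, 9.41%, 9.45% and 9.44%. The telo box AAACCCTA, a motif of genes of the translation machinery, was in 1.60%, 1.70%, 3.51% and 4.75%, and the evening element AAATATCT of clock-controlled genes in 6.91%, 4.605%, 4.83% and 4.34%. The lists varied in both directions. Among genes called higher, ACGTG was in 9 of 12 LEA genes, 6 of 10 genes of the RD, KIN and ERD list, 8 of 12 jasmonate genes, 5 of 8 galactinol, raffinose and trehalose genes and 3 of 5 PP2C genes, but in 1 of 6 suberin genes, 1 of 5 triterpene genes and 0 of the 5 XTH, 3 phosphate and 2 proline genes. Among genes called lower, it was in 2 of 11 cytokinin genes, 1 of 7 iron genes, 0 of 4 brassinosteroid genes and 0 of 5 aquaporin genes, but in 4 of 5 galactinol, raffinose and trehalose genes, 3 of 6 glucosinolate genes and 2 of 2 potassium and sodium genes. *RD29A* had 0 matches of ACGTG and 3 of CCGAC in this window. These are matches of letters in a short window, and binding was not measured.

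Drought transcription factor genes were examined next. Of 27 tested members, 3 were called higher (11.1%) and 2 lower (7.41%), with a median of 0.15. These shares were not far from those of all tested genes, 7.54% higher and 4.84% lower. *MYB44* was at 379, 269 and 405 CPM in control and 510.4, 648 and 615 CPM in drought and *HB7* at 32.7, 41.3 and 23.0 CPM in control and 55.4, 51.8 and 59.8 CPM in drought, and *NAC032* was called as well, with log2 fold changes of 0.75 (SE 0.15), 0.78 (SE 0.18) and 1.12 (SE 0.26). *CBF1* and *CBF2*, which encode the cold-response factors, were called lower (-1.51, SE 0.34 and -1.37, SE 0.35). The library left out decided several of these calls: 9 factor genes were called higher and 3 lower without control replicate 3, *NAC032* was lost without control replicate 1 or 2 or drought replicate 3, and *CBF2* was lost without control replicate 1 or 2 or any drought replicate, which left 1 gene called lower. *HB7* lost its call with only the WT samples in the model (adjusted p = 0.0548 in edgeR's quasi-likelihood F-test).

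Proline, a compatible solute, is made by P5CS enzymes and degraded by proline dehydrogenase. *P5CS1* (AT2G39800), its rate-limiting synthetic enzyme, was at 77.1, 70.0 and 46.6 CPM in control and 263, 184 and 216 CPM in drought, and *ERD5* (AT3G30775), a proline dehydrogenase gene, was at 246, 170.5 and 247 CPM in control and 444, 597 and 411 CPM in drought. Both were higher in all drought samples, by 1.77 (SE 0.18) and 1.13 (SE 0.19) on the log2 scale, so that genes of both synthesis and breakdown were called. They were the 2 called members of 10, and 4 members were called without drought replicate 1. From the heat shock list, 2 of 11 tested genes were called higher, *HSP70* (AT3G12580), a chaperone gene at 11.9, 9.52 and 15.2 CPM in control and 62.7, 65.6 and 55.1 CPM in drought (2.32, SE 0.16), and the factor gene *HSFA6B* (1.24, SE 0.24). The adjusted p of these 4 genes lay between 4.43e-05 and 0.00633 in edgeR's quasi-likelihood F-test after Benjamini-Hochberg correction.

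Sugar genes moved in both directions. In the sucrose and sugar transport list, 8 of 23 genes were called higher (34.8%) and 2 lower. Beside *SPS2F*, a second sucrose phosphate synthase gene, *SPS1F*, was at 80.3, 75.4 and 99.9 CPM in control and 211, 201 and 256 CPM in drought, and *SUS3* (AT4G02280), a sucrose synthase gene, was at 5.04, 5.89 and 12.0 CPM in control and 87.6, 56.9 and 69.8 CPM in drought. *SWEET15* (AT5G13170), a sugar exporter gene, was at 0.158, 0.310 and 0 CPM in control and 15.1, 2.86 and 3.02 CPM in drought, with 10 counts in control against 411 in drought (ratio of pooled CPM 42.8, exact 95% interval 23.0 to 90.0). All 3 were separate between the groups, and the log2 fold changes were 1.39 (SE 0.13), 3.23 (SE 0.29) and 5.36 (SE 0.89), the last being 6.35 without control replicate 2 and 4.103 without drought replicate 1. The sugar transporter genes *SWEET2* (-0.85) and *SUC1* (-0.91) were called lower, with 0 called lower without control replicate 1, control replicate 2 or drought replicate 3 and 1 without control replicate 3 or drought replicate 1.

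For galactinol, raffinose and trehalose metabolism, 8 of 27 genes were called higher and 5 lower, with a median of -0.09. *GOLS2* (AT1G56600), a drought-responsive galactinol synthase gene, was at 4.36, 5.62 and 6.37 CPM in control and 12.5, 9.92 and 12.9 CPM in drought, and *GOLS4*, chosen after its values were seen, at 12.9, 15.5 and 23.2 CPM in control and 38.9, 68.6 and 108 CPM in drought. Both were higher in every drought sample, by 1.11 (SE 0.18) and 2.06 (SE 0.35) on the log2 scale. The genes called lower were *STS*, the trehalose phosphate phosphatase genes *TPPB* and *TPPH* and the trehalose phosphate synthase family genes *TPS9* and *TPS10*. *TPPB* was at 40.9, 51.0 and 35.2 CPM in control and 11.05, 12.5 and 10.7 CPM in drought, a change of -1.89 (SE 0.21), and *TPPH*, *TPS10* and *TPS9* had log2 fold changes of -1.24, -1.47 and -0.95. The number called higher was 5 without control replicate 1 or drought replicate 2 and 4 without control replicate 2 or drought replicate 3, and *TPS9* lost its call without each of these 4 libraries.

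Aquaporins, the water channels of plasma membrane (PIP) and vacuole (TIP), had 1 of 21 tested genes called higher and 5 lower (23.8%), with a median of -0.12. *PIP2;2* (AT2G37170) was at 490.3, 509 and 493 CPM in control and 322, 204 and 200.5 CPM in drought, and *PIP1;1* (AT3G61430) at 762, 787 and 774 CPM in control and 582, 438 and 373 CPM in drought. The groups did not overlap, and the log2 fold changes were -1.04 (SE 0.18) and -0.74 (SE 0.16). *PIP2;2* shares 20.7% of its 45-base stretches with another transcript, so that its reads are in part uncertain. *PIP2;1* (-0.69), *TIP2;2* (-0.81) and *TIP2;3* (-1.35) were the other genes called lower, and *PIP2;5* (0.73) was called higher. Without drought replicate 2 or 3, 2 genes were called lower, *PIP2;1* and *TIP2;2* being lost, and 3 were called lower without control replicate 1, *TIP2;2* being lost. *PIP2;5* was not called without control replicate 3 or drought replicate 2 or 3. *TIP2;3* lost its call without control replicate 1 or 2 or drought replicate 2 or 3, and was at -1.97 without drought replicate 1.

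Potassium channel genes changed in opposite directions. *SKOR* (AT3G02850), which encodes the channel that loads potassium into the xylem, was at 57.4, 72.4 and 44.8 CPM in control and 9.79, 4.73 and 3.02 CPM in drought, and *GORK* (AT5G37500), a guard cell and root outward channel gene, was at 38.4, 38.5 and 26.1 CPM in control and 65.1, 73.6 and 62.9 CPM in drought. *SKOR* was lower in every drought sample (-3.31, SE 0.48, and -3.90 without drought replicate 1), while *GORK* was higher in each (0.97, SE 0.15). *HKT1* (AT4G10310), a sodium transporter gene, was at 46.3, 68.2 and 76.1 CPM in control and 18.6, 27.7 and 30.5 CPM in drought (-1.31, SE 0.22). Also called higher were *NHX2* (0.61), of a vacuolar exchanger, and *HAK5* (1.24), of a high-affinity potassium carrier, which makes 3 higher and 2 lower of 8 tested genes. Without control replicate 2, 1 gene was called higher, since *NHX2* and *HAK5* lost their calls, and each of these was also lost without other libraries (*NHX2* without drought replicate 1, *HAK5* without control replicate 1 or drought replicate 2 or 3).

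Nitrate genes were called in both directions. *NIA1* (AT1G77760), a nitrate reductase gene, was at 745, 1292 and 1043 CPM in control and 210.2, 178 and 189.9 CPM in drought, and *NRT1.1* (AT1G12110), of the dual-affinity nitrate transporter and sensor, was at 166, 154 and 180.3 CPM in control and 64.9, 52.3 and 40.2 CPM in drought. Both were below control in every drought replicate, with log2 fold changes of -2.41 (SE 0.32) and -1.67 (SE 0.22), and they were the 2 genes called lower of 17 tested, 4 being called without drought replicate 3. Called higher were *NRT1.8* (1.71, SE 0.35), whose product removes nitrate from the xylem, the glutamine synthetase genes *GLN1;3* (0.96, SE 0.16) and *GLN1;1* (1.11, SE 0.27), and the high-affinity transporter gene *NRT2.4* (4.14, SE 1.18). *GLN1;1* and *NRT2.4* lost their calls without control replicate 1, control replicate 2 or drought replicate 3, which left 2 called higher, and *NRT2.4* was lost without drought replicate 2 as well.

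Phosphate transporter genes were among those called lower. *PHT1;1* was at 41.4, 40.5 and 49.5 CPM in control and 15.6, 15.2 and 8.96 CPM in drought, and *PHT1;2* at 1.79, 1.99 and 1.96 CPM in control and 0.303, 0.468 and 0.216 CPM in drought. They were lower in every drought sample, with log2 fold changes of -1.72 (SE 0.18) and -2.52 (SE 0.33), but share 44.1% and 47.0% of their 45-base stretches with other transcripts, so that reads cannot be fully assigned between them. *PHT1;3*, with 1.97% shared, had 149 counts in control and 4 in drought (ratio 35.8, exact 95% interval 13.7 to 133) and a fitted value of -5.07, or -6.29 without drought replicate 1. *PHO1* (-0.98), which encodes the exporter that loads phosphate into the xylem, and *PHO1;H1* (-1.55) completed the 5 of 14 genes called lower, the latter being lost without drought replicate 3. The phosphatase genes *PAP17* (5.62, 5.22 and 8.88 CPM in control and 27.3, 26.4 and 19.8 CPM in drought) and *PS2* (1.36, SE 0.28), which are induced by phosphate starvation, and *SPX1* (1.38, SE 0.41) were called higher. *SPX1* lost its call without any 1 of the libraries other than control replicate 3 and drought replicate 3.

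Of 18 iron uptake and regulation genes, 7 were called lower (38.9%) and 1 higher, with a median of -0.53. *FRO2* (AT1G01580), a ferric reductase gene, was at 5.67, 6.11 and 10.1 CPM in control and 1.16, 1.87 and 1.57 CPM in drought, and *FIT* (AT2G28160), the factor that controls it, was at 10.1, 12.0 and 13.02 CPM in control and 5.25, 3.90 and 6.32 CPM in drought. *IRT1*, the iron transporter gene, chosen after its values were seen, was at 7.77, 5.67 and 10.9 CPM in control and 0.504, 2.03 and 0 CPM in drought. All 3 were below control in every drought replicate, by log2 fold changes of -2.24 (SE 0.31), -1.18 (SE 0.17) and -3.25 (SE 0.70), with drought replicate 2 of *IRT1* well above the other drought samples and a value of -4.93 without it. *IRT1* was not called with only the WT samples in the model (adjusted p = 0.0514 in edgeR's quasi-likelihood F-test). The nicotianamine synthase genes *NAS1* (-1.65) and *NAS4* (-2.28) also fell, and *FER1* (0.99), which encodes the iron store ferritin, was called higher except without drought replicate 3, and 2 genes were called higher without control replicate 3. Over the named genes of nitrate, phosphate, iron, potassium and sodium transport that were called, the adjusted p lay between 0.000395 and 0.0421 in edgeR's quasi-likelihood F-test after Benjamini-Hochberg correction.

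Jasmonate (JA) genes were called higher in 12 of 24 tested cases and lower in 0, with a median of 0.81. Their summed level was 5833, 3921 and 6831 CPM in control and 7126, 9847 and 10985 CPM in drought. Drought replicate 1 was only a little above control replicate 3. The touch and wound genes summed to 7883 CPM in control replicate 3 and 6677 CPM in drought replicate 1, and their part in this result was not tested. *JAZ10* (AT5G13220), a repressor gene that JA itself induces, was at 134, 74.4 and 138 CPM in control and 279, 332 and 373 CPM in drought, and *JAZ9* at 31.6, 30.8 and 21.9 CPM in control and 63.4, 92.6 and 77.0 CPM in drought. *OPR3*, a JA synthesis gene, and *VSP1*, a JA-responsive storage protein gene, both chosen after their values were seen, were at 428, 208 and 417 CPM in control and 606, 922 and 958 CPM in drought and 103, 62.3 and 41.1 CPM in control and 138, 210.1 and 192 CPM in drought. These 4 genes were separate between the groups, with log2 fold changes of 1.51 (SE 0.26), 1.46 (SE 0.25), 1.24 (SE 0.27) and 1.39 (SE 0.30), and the synthesis gene *AOC2* and the repressor gene *JAZ3* rose by 1.55 (SE 0.31) and 1.004 (SE 0.21). The number called higher was 6 without drought replicate 2 and 7 without drought replicate 3. Of the touch and wound genes themselves, 1 of 15 was called higher (6.67%, against 7.54% of all tested genes), *TCH4* (0.88), and 0 lower, with a median of 0.39. That number was 7 without control replicate 3, 3 without drought replicate 1, and 0 without control replicate 1 or drought replicate 2 or 3, while 1 was called lower without control replicate 1.

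Cytokinin genes moved the other way, with 11 of 17 called lower (64.7%), 1 higher and a median of -1.22. *IPT3* (AT3G63110), a synthesis gene known to respond to nitrate, was at 81.2, 84.9 and 53.3 CPM in control and 15.9, 23.5 and 15.6 CPM in drought. *ARR7* and *ARR15*, type-A response regulator genes that cytokinin induces, both chosen after their values were seen, were at 19.8, 35.2 and 10.4 CPM in control and 7.72, 6.39 and 4.16 CPM in drought and 1.94, 2.83 and 1.25 CPM in control and 0.656, 0.675 and 0.594 CPM in drought. Drought values were below control values throughout, with log2 fold changes of -1.99 (SE 0.29), -1.84 (SE 0.42) and -1.65 (SE 0.37). *IPT5* (-1.08) fell as well, and of the cytokinin oxidase genes, whose products degrade the hormone, *CKX4* fell (-1.34) and *CKX5* rose (1.17, with 7.46% of its 45-base stretches shared). The summed level was 392, 497 and 274 CPM in control, highest in control replicate 2, and 192, 193 and 175 CPM in drought. The number called lower was 5 without control replicate 2, 6 without either drought replicate 2 or 3, and 7 without control replicate 1. *ARR15* lost its call without control replicate 2 and *ARR7* without drought replicate 3.

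Brassinosteroid (BR) genes had 0 of 16 called higher and 4 lower, with a median of -0.16. *CYP90D1* and *ROT3*, hydroxylase genes of BR synthesis, were at 11.7, 15.9 and 6.04 CPM in control and 2.57, 3.12 and 2.59 CPM in drought and at 46.3, 52.6 and 50.5 CPM in control and 31.2, 23.5 and 33.1 CPM in drought. Both were lower in each drought sample (-2.02, SE 0.39 and -0.77, SE 0.15), as was *BAS1* (-0.72, SE 0.16), which encodes an enzyme that inactivates BRs. The receptor gene *BRL1* was at 29.7, 39.5 and 18.4 CPM in control and 13.7, 17.35 and 19.9 CPM in drought (-0.78, SE 0.24), and its call held only with all libraries or without control replicate 3. Without control replicate 1 or drought replicate 1, 1 gene of the list was called higher. Over the hormone genes named, the adjusted p of those called lay between 0.00192 and 0.0461 in edgeR's quasi-likelihood F-test after Benjamini-Hochberg correction.

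Suberin, the lipid polymer of the endodermal and peridermal wall, had 6 of 18 synthesis genes called higher (33.3%), 0 lower and a median of 0.60. *GPAT5* (AT3G11430), an acyltransferase gene of suberin monomers, was at 19.9, 21.9 and 31.7 CPM in control and 38.0, 48.5 and 61.0 CPM in drought, and *ABCG6*, a suberin transporter gene, at 25.8, 26.7 and 43.3 CPM in control and 50.9, 71.7 and 88.4 CPM in drought. The drought samples were above the control samples in both, by 1.01 (SE 0.21) and 1.14 (SE 0.24) on the log2 scale, and *KCS2* (1.21) and *CYP86A1* (0.71), of fatty acid elongation and hydroxylation, rose as well. The number of suberin genes called was 10 without drought replicate 1, and it was 3 without drought replicate 3, *CYP86A1* being lost. Of the 9 tested genes of the Casparian strip, the lignin barrier of the same cell layer, 0 were called in either direction. *CASP1* was at 54.9, 52.2 and 79.0 CPM in control and 75.5, 52.3 and 57.2 CPM in drought (-0.01, SE 0.20) and *PER64* at 40.5, 38.7 and 54.0 CPM in control and 50.5, 36.3 and 39.9 CPM in drought (-0.07, SE 0.16), overlapping between the groups.

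Of the growth lists, cell wall loosening genes had 5 of 26 called higher, namely the XTH genes *XTH24* (0.93), *XTH19* (0.998), *XTH23* (1.05), *XTH18* (0.83) and *TCH4*, and 1 lower, the expansin gene *EXPA17* (-0.81). The median of this list was -0.23, with negative values in 16 genes. Its shares were 19.2% higher and 3.85% lower, against 7.54% and 4.84% of all tested genes. The number called higher was 2 without drought replicate 2 and 3 without control replicate 1 or drought replicate 3, *XTH23* being lost without drought replicate 2 and *XTH18* without any 1 library other than control replicate 3. The number called lower was 4 without control replicate 3, 2 without drought replicate 1 and 0 without control replicate 1, control replicate 2 or drought replicate 3. Cell cycle genes were called lower in 3 of 26 cases and higher in 0, with a median of -0.30 and negative values in 23 genes. The 3 were the cyclin genes *CYCA2;3* (-0.60), *CYCB2;1* (-0.61) and *CYCA1;1* (-0.89), and the number called was 0 without control replicate 2 and 1 without control replicate 1 or drought replicate 2 or 3. *CYCA1;1* kept its call only with all libraries or without control replicate 3, *CYCA2;3* lost it without control replicate 2 or drought replicate 3, and *CYCB2;1* without control replicate 1 or 2 or drought replicate 1 or 2. Without control replicate 3 or drought replicate 1, 1 cell cycle gene was called higher. Among 15 root hair genes, *RSL4*, a factor that sets hair length, was the 1 called, at 1.73, 1.33 and 1.85 CPM in control and 4.19, 3.90 and 5.18 CPM in drought (1.44, SE 0.36), and it was lost without control replicate 1, control replicate 2 or drought replicate 3. The share called higher in this list was 6.67%, against 7.54% of all tested genes.

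Among the root identity markers, *GL2* and *WER*, which specify epidermal cells without hairs, were called lower (-1.16, SE 0.24 and -0.79, SE 0.20), and the list had a median of -0.61. Of its 8 genes, 7 had a negative log2 fold change. *GL2* was at 14.4, 11.2 and 16.9 CPM in control and 8.07, 5.51 and 5.35 CPM in drought and *WER* at 13.02, 10.5 and 13.9 CPM in control and 9.38, 6.55 and 5.62 CPM in drought. Without drought replicate 1, 6 of the 8 markers were called lower, and without control replicate 1 or drought replicate 2 or 3, *WER* was lost and 1 remained. Of the 20 tested photosynthesis genes 0 were called (median -0.67), 1 being called lower without control replicate 3 or drought replicate 1, and of these *LHCA4* was at 33.6, 65.0 and 15.8 CPM in control and 31.0, 28.0 and 13.3 CPM in drought and *LHCB1.3* at 30.7, 179 and 1.25 CPM in control and 94.5, 56.3 and 8.15 CPM in drought. From the clock genes, *ELF4* (1.56, SE 0.33) was the 1 of 12 called (8.33% higher, against 7.54% of all tested genes), and 2 were called without control replicate 3, drought replicate 2 or drought replicate 3. The summed level of the clock list was 496, 490.0 and 517 CPM in control and 538, 598 and 584 CPM in drought. Over the wall, growth, identity and clock genes named, the adjusted p of those called lay between 0.00392 and 0.0443 in edgeR's quasi-likelihood F-test after Benjamini-Hochberg correction.

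Glucosinolates and triterpenes, the defence compounds of these roots, were examined last. Of 16 glucosinolate genes, 6 were called lower (37.5%) and 1 higher, and 6 were called lower when any 1 library was left out. *MAM1* (AT5G23010), which lengthens the methionine chain of aliphatic glucosinolates, was at 65.8, 70.6 and 65.0 CPM in control and 10.3, 9.87 and 11.2 CPM in drought, and *MYB28* (AT5G61420), the factor that controls the aliphatic branch, was at 39.1, 48.1 and 48.4 CPM in control and 27.0, 21.4 and 24.7 CPM in drought. The groups were far apart for *MAM1* (-2.68, SE 0.33) and separate for *MYB28* (-0.89, SE 0.11). The other genes called lower were *CYP79F2* (-1.98), *BCAT4* (-1.73), *CYP83A1* (-1.76) and *SOT18* (-0.72), which also act in the aliphatic branch, *BCAT4* and *CYP83A1* being named after their values were seen. The sulfotransferase gene *SOT16*, best known from indole glucosinolates, was called higher (0.59), a call that was lost without any 1 library other than drought replicate 1.

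Triterpene genes of root clusters were called higher in 5 of 5 cases, and in 5 of 5 when any 1 library was left out, with a median of 1.93. *MRN1* (AT5G42600, chromosome 5 from 17053453 to 17058245), the marneral synthase gene, was at 30.5, 23.601 and 39.8 CPM in control and 364, 241 and 333 CPM in drought, and its cluster neighbour *CYP71A16* at 29.5, 29.4 and 43.7 CPM in control and 134.9, 95.9 and 160.4 CPM in drought. *THAS1* (AT5G48010), the thalianol synthase gene, was at 70.3, 51.9 and 80.8 CPM in control and 238, 235 and 311 CPM in drought. All were higher in every drought sample, with log2 fold changes of 3.32 (SE 0.31), 1.93 (SE 0.26) and 1.95 (SE 0.29), and the thalianol pathway genes *THAD* and *THAH* rose by 1.72 (SE 0.26) and 1.19 (SE 0.20). The list summed to 273, 229 and 333 CPM in control and 1143, 917 and 1277 CPM in drought. The adjusted p of the named glucosinolate and triterpene genes lay between 0.00022 and 0.0359 in edgeR's quasi-likelihood F-test after Benjamini-Hochberg correction.

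Wherever a list had 0 members called in a direction by edgeR's quasi-likelihood test, between 0 and 2 members had an unadjusted p under 0.05 in that direction. With DESeq2's Wald test the number called was again 0 for each, except for 1 cell cycle gene called higher. With only the WT samples in the model, 22 of the 157 named genes lost their calls, all in the same direction, at adjusted p between 0.0514 and 0.121 in edgeR's quasi-likelihood F-test. Beside the ABA genes, *HB7* and *IRT1*, these were *SWEET2*, *SUC1*, *PIP2;5*, *TIP2;2*, *TIP2;3*, *HAK5*, *SPX1*, *BRL1*, *TCH4*, *XTH18*, *XTH23*, *CYCA1;1*, *CYCB2;1*, *WER* and *SOT16*. In that model 6 cytokinin, 3 aquaporin, 1 cell cycle and 0 sugar genes were called lower, and 5 galactinol, raffinose and trehalose genes and 2 cell wall loosening genes higher. *CYCA2;3* was under the fold change threshold with RLE normalization and with DESeq2 (-0.58 with each), and *BRL1* was not called with RLE normalization. Whether the counting told apart reads of genes that overlap on opposite strands is not known, since its strand setting is not given in the sources used here. This concerns 29 of the 157 named genes, among them *RAB18*, *LEA7*, *P5CS1*, *SKOR*, *UMAMIT19*, *AT5G65990*, *AT1G56300*, *AT3G20380*, *JAZ10*, *ROT3*, *NRT1.8*, *PAP17*, *KCS2*, *ABF3*, *BCAT4*, *GOLS4* and *AAP3*. A gene on the same strand overlaps *MYB44*, *CKX5*, *SOT18* and *GL2*, and 8 named genes share over 5% of their 45-base stretches with another transcript.

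**Figure D4:**
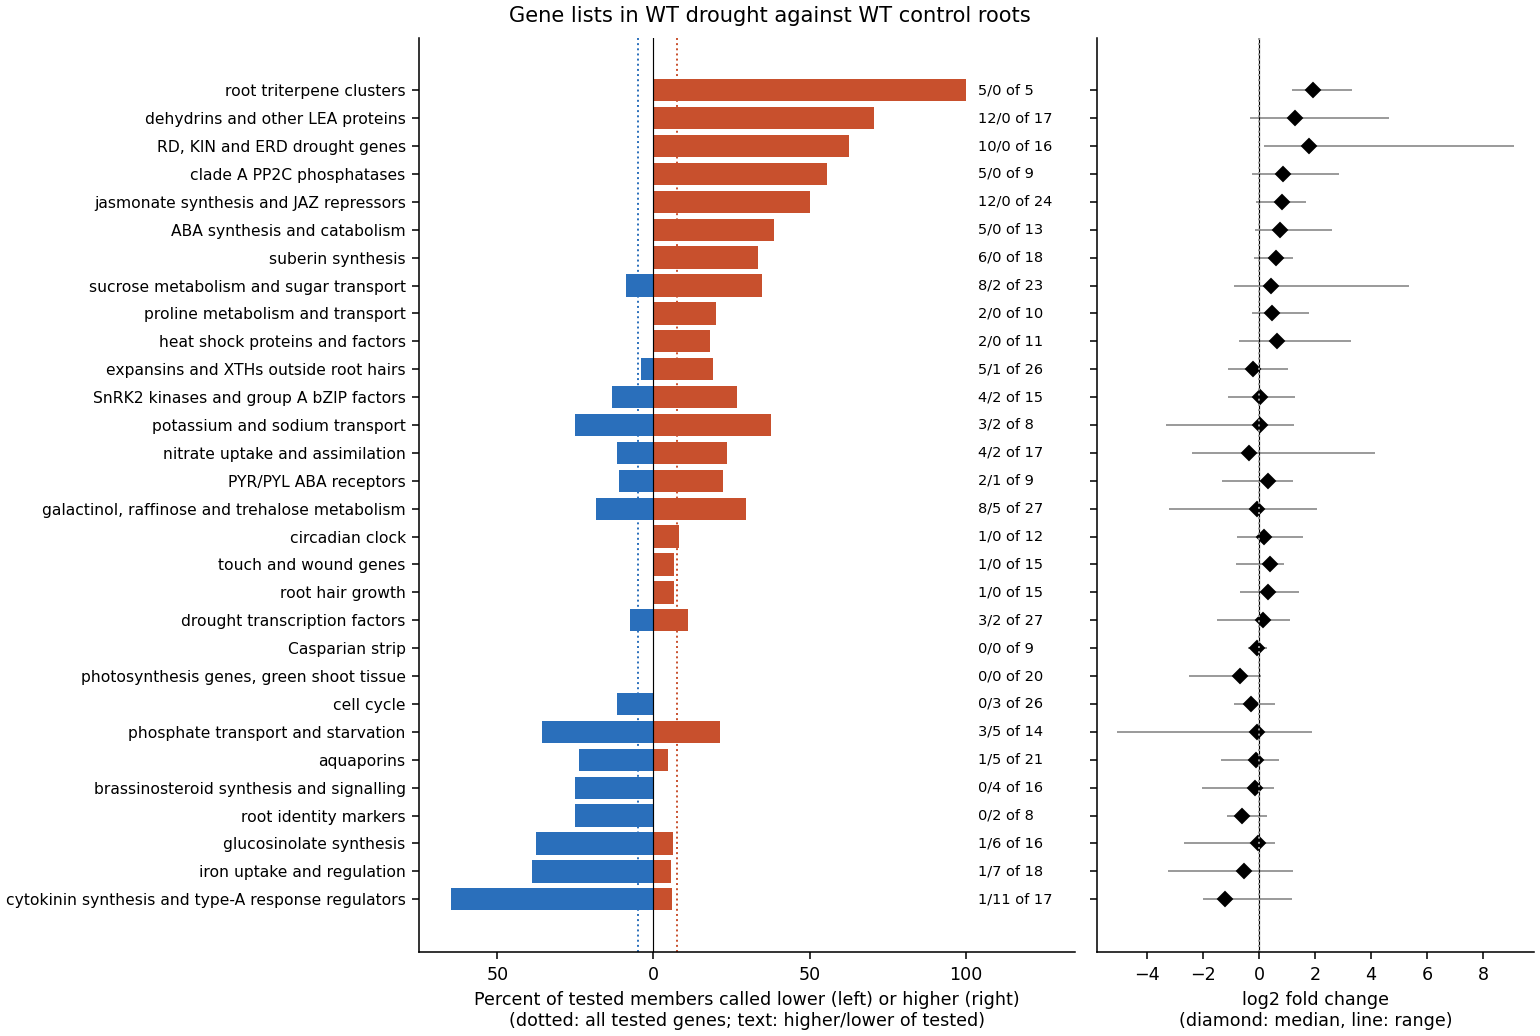
Left, percent of the tested members of each gene list called lower (bars to the left) or higher (bars to the right) in WT drought against WT control, with the share of all tested genes as dotted lines (4.84% lower and 7.54% higher) and the counts as text. Right, the median log2 fold change (diamond) and range (line) of each list, from the triterpene list, with 5 of 5 called higher, to the cytokinin list, with 11 of 17 called lower, and with *LTP3* and *LTP4* counted in the RD, KIN and ERD list.

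**Figure D5:**
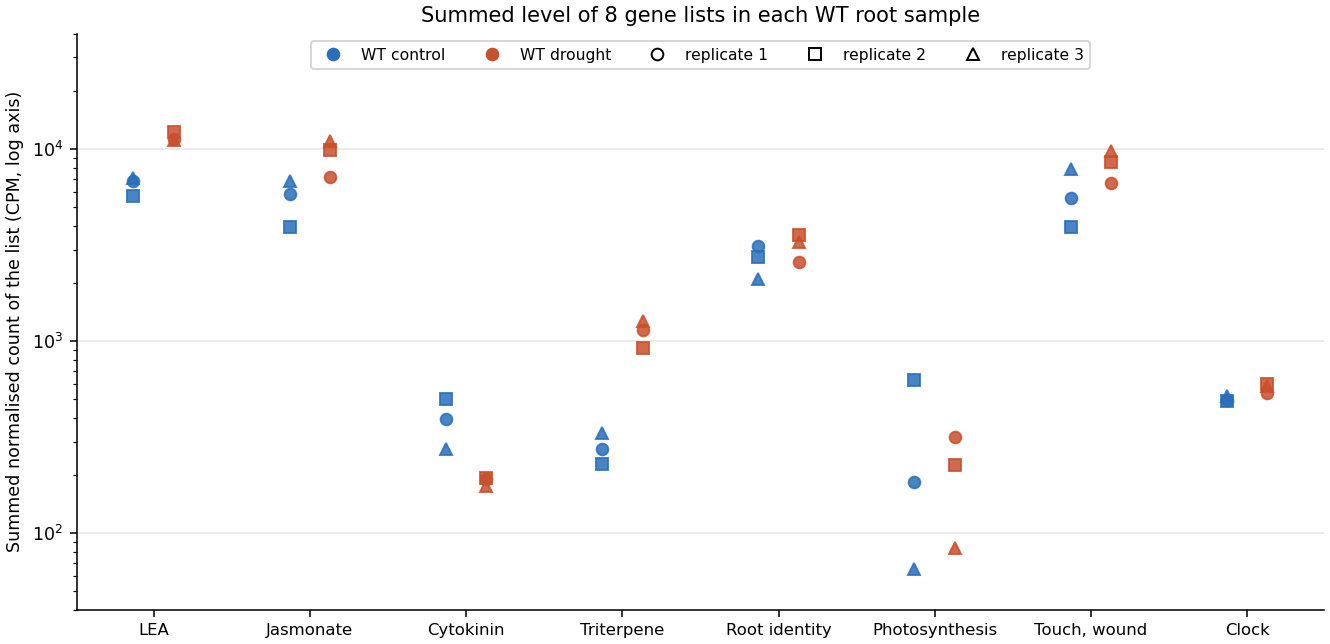
Summed normalised count (CPM, log axis) of 8 gene lists in each of the 3 WT control and 3 WT drought samples, with marker shape for the replicate. The groups are apart for the LEA, jasmonate, cytokinin, triterpene and clock lists and overlap for the root identity, photosynthesis and touch and wound lists. The root identity sums overlap although 7 of the 8 genes had a negative log2 fold change.

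The WT response was set beside that of *BRL3ox* roots, whose 5 samples share none of the WT samples. By the same thresholds, 1893 genes (9.14%) were called higher and 1447 (6.98%) lower by drought in *BRL3ox*. Of the 1563 genes called higher in WT, 1484 had a positive log2 response in *BRL3ox*, and of the 1002 called lower, 978 had a negative one. The signs of the *BRL3ox* response over all tested genes were not counted, so these counts have no background share beside them. The calls of both genotypes also came from 1 fit with a shared estimate of the spread. In the test of the difference between the responses, 2 genes (0.00965%) had an FDR under 0.05 by edgeR's quasi-likelihood test, where 214 did with DESeq2. *YUC9*, an auxin synthesis gene, was at 8.93, 6.60 and 7.13 CPM in control and 12.8, 12.3 and 11.7 CPM in drought in WT, and *AAP3*, an amino acid permease gene, was at 14.4, 14.9 and 11.7 CPM in control and 19.0, 21.2 and 19.4 CPM in drought. *YUC9* was called higher in WT (0.70, SE 0.12), and *AAP3* was under the fold change threshold (0.54, SE 0.12), except without control replicate 2, at 0.61. In *BRL3ox* the log2 responses were -0.975 and 2.25, and both differences from WT had adjusted p = 0.0284 in edgeR's quasi-likelihood F-test after Benjamini-Hochberg correction. No gene had an FDR under 0.05 in this test without any 1 drought replicate of WT, and 1, 7 and 5 genes did without control replicates 1, 2 and 3. The triterpene list, singled out here after its values were seen, had 1 of 5 genes called higher in *BRL3ox*, with a median of 0.68. In WT it was 5 of 5. All 5 had an unadjusted p under 0.05 in edgeR's quasi-likelihood F-test of the difference, and 0 had an FDR under 0.05. Such p-values were not particular to this list. They were found in 10 of 21 aquaporin genes and 7 of 27 drought transcription factor genes, but in 0 of 8 root identity markers. Calls differed in other lists too, with 5 aquaporin genes called lower in WT and 11 in *BRL3ox*. The share of all tested genes with such a p-value was not counted.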

How the data were processed

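Poly(A) RNA of mature roots was sequenced by the authors as 50-bp single-end reads from TruSeq Stranded libraries. Per the paper's methods and the submitters' processing notes, they trimmed 5 bp from the 3′ end, filtered reads by quality (FastQC), mapped them to TAIR10 with HISAT2 2.1.0 and counted them per gene with HTSeq 0.9.1. Each deposited file holds the raw counts of 1 sample for 33341 gene identifiers, with no normalization or pooling. HTSeq's summary classes (unassigned, ambiguous or multiply aligned reads, 10.5% to 12.9% of the total) were left out of library sizes and tests. The strand setting of the counting is not given in the sources used here.

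Genes were filtered with filterByExpr by group (20718 kept), counts were normalized by TMM, and 1 coefficient per group was fitted to the 4 groups of all 11 samples, which share 1 estimate of the spread (7 residual and 3.48 prior degrees of freedom, common biological coefficient of variation 0.159), with edgeR 4.0.16 in R 4.3.3 (glmQLFit and glmQLFTest, robust = FALSE). A gene was called where its fold change was over 1.5 and its Benjamini-Hochberg FDR under 0.05, as the paper's Results have it, where its Methods give 2. CPM use TMM-scaled library sizes, and a standard error (SE) is the absolute log2 fold change over the square root of the F statistic. No 2 replicates agreed within sampling noise (chi-square per degree of freedom 14.3 to 44.7). On simulated data with the same design, an FDR under 0.05 recovered 46.3% of simulated 1.5-fold changes, 76.1% of 2-fold and 100% of 4-fold changes among 20718 genes, and 5 unchanged genes passed it. Only 67, 67 and 66 genes were changed at these folds, far fewer than were called in the data. The spread was drawn from its trend over level alone, and the fold change threshold was not applied. The shares may therefore differ in the data, where changes of 1.5 times may be missed.

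The samples, gene lists and tests were chosen with earlier results of these data known. Named genes are the 10 with the smallest p in each direction, the 5 with the largest change in each direction among genes of at least 10 CPM in the higher group, up to 4 called members of each list with the smallest p (2 with the highest level where none was called), genes with an interaction FDR under 0.05, and members that complete a count of 5 or fewer. Others are marked as chosen after their values were seen. Coordinates, gene products and promoters were read from the RefSeq TAIR10.1 genome and annotation, which held 33056 of the identifiers, and exact 95% intervals of ratios cover counting error only. Alternatives were RLE normalization, DESeq2 1.42.0, the likelihood ratio test, only the WT samples, 2 other filters on low counts, 2 other fold change thresholds, robust = TRUE, the replicate number as a block and leaving out each WT sample in turn.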

Additional observations from a re-analysis of the deposited data

Results flagged for a closer look

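The drought responses of WT and *BRL3ox* roots differed for 2 genes by the test of the difference itself, edgeR's quasi-likelihood test of the interaction with Benjamini-Hochberg adjustment (adjusted p = 0.0284 for both). *YUC9* had a log2 response of 0.70 in WT and -0.975 in *BRL3ox* roots, an interaction of -1.68. For *AAP3* the response was larger in *BRL3ox*, with an interaction of 1.71.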

How the results depend on the processing

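No gene was called in the opposite direction in any setting. With all tested genes, the number called higher lay between 1030 and 2021 and the number called lower between 628 and 1298 when 1 WT library was left out, and of the 1563 and 1002 genes, 998 and 582 were called in the same direction without drought replicate 3. With only the WT samples in the model, 1067 genes were called higher and 663 lower. With a fold change over 2, 846 were higher and 586 lower, and with no fold change threshold 2272 were higher and 1680 lower. The interaction count of 2 was 214 with DESeq2, 202 with the likelihood ratio test, 5 with no filter on low counts and 0 to 7 when 1 WT library was left out, and the cause was not tested. Samples of the same number deviated together with r of -0.01, 0.19 and 0.30 for replicates 1, 2 and 3. Drought replicates 2 and 3 correlated best with the control of their own number, and drought replicate 1 with control replicate 2 (r of 0.12). With these values, the numbers were not taken to pair the samples. With a replicate block, 1748 genes were called higher, 1133 lower and 8 in the interaction. Genes that were not called changed sign: *CASP1* was at 0.0057 with RLE normalization, 0.0053 with DESeq2 and 0.0033 with the replicate block, and *LHCB1.3* at 0.094 with the replicate block. When 1 library was left out, *CASP1* ranged from -0.18 to 0.21, *PER64* from -0.22 to 0.095 and *LHCB1.3* from -1.13 to 1.73. Depth left genes such as *LTP4* and *MYB79* with 2 and 4 control counts, whose ratios have wide intervals.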

Other observations

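Beyond the lists, genes were grouped by the product name of the annotation, a grouping chosen after the values were seen and given without a test. Over all tested genes, 7.54% were called higher and 4.84% lower. Of 132 product classes with at least 15 tested genes, the class of lipid-transfer and seed storage 2S albumin proteins had the highest share called higher, 15 of 42 genes (35.7%), with 2 lower. In order of that share, 5 of 15 ABC-2 type transporters, 6 of 18 dirigent-like proteins, 8 of 25 genes of the polyketide cyclase and lipid transport class (with 4 lower), 13 of 45 HXXXD-type acyltransferases, 6 of 22 amino acid transporters, 4 of 15 cotton fiber proteins, 11 of 44 GDSL-like lipases and 6 of 24 family 17 glycosyl hydrolases were called higher. The class named leucine-rich repeat protein kinase family went the other way, with 24 of 103 genes called lower (23.3%) and 2 higher. Lower calls also outnumbered higher ones among TRAF-like genes (7 and 2 of 23), mannose-binding lectins (7 and 2 of 26), terpenoid cyclases (4 and 1 of 15) and peroxidases (12 and 8 of 51). Classes with names close to the leucine-rich repeat kinases did not share this direction. The leucine-rich receptor-like protein kinase class had 0 of 22 genes called lower and 2 higher. The leucine-rich repeat family class had 0 of 45 lower and 2 higher.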
